A study of Mus musculus with 12 samples.

Results

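The thick ascending limb of the loop of Henle is represented here by 8 genes, Umod, Slc12a1, Kcnj1, Bsnd, Cldn16, Cldn19, Egf and Casr, which were chosen with earlier results of these data known and found by symbol among the 50433 genes of the renal tubular epithelial cell (TEC) table. All 8 genes were present once, and 8 of 8 passed the filter on low counts that left 14734 genes for testing. RNA-Seq was performed on TECs sorted as CD45-negative, Prominin-1-positive kidney cells at 24 hours after ischemia-reperfusion injury (IRI), which was induced in wild-type male C57BL/6J mice of 8 to 12 weeks by clamping both renal pedicles. The comparison was between 3 libraries of glutamine-treated mice (replicates 1, 2 and 3) and 3 libraries of vehicle-treated mice (replicates 3, 4 and 5), the vehicle being saline given intravenously. All 6 libraries came from injured kidneys, and no sham library was part of this comparison. Neutrophils (PMN) from the blood of IRI mice, 3 libraries with glutamine and 3 with vehicle, served as a negative control. For TECs isolated with magnetic beads, the study describes the prominin-1 antibody as specific for proximal tubules. The share of thick ascending limb cells in the sort used here was not measured.

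Cells of the thick ascending limb reabsorb sodium, potassium and chloride from the tubular fluid without water, which dilutes the urine and builds the osmotic gradient of the medulla. The cotransporter NKCC2 brings the salt in across the apical membrane, the channel ROMK returns potassium to the lumen, and chloride leaves through basolateral channels. The lumen-positive voltage that results drives calcium and magnesium between the cells through claudin pores. The segment is also the main source of uromodulin, the most abundant protein of normal urine, and it lies partly in the outer medulla, where oxygen supply is scarce.

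After adjustment over all genes in edgeR, 0 of the 8 stayed below 0.05, a threshold that 0% of all tested genes passed. Transcripts of Slc12a1 were 2.47-fold, Egf 2.03-fold and Cldn19 1.88-fold as abundant with glutamine as with vehicle, and these 3 genes had unadjusted p-values below 0.05, in a comparison in which 7.32% of all tested genes were higher and 5.58% were lower at that level. None of the 8 was lower at that level. Umod, Kcnj1 and Cldn16, by contrast, had fold changes of 1.1, 1.11 and 1.09, smaller than their spread between libraries. In bulk RNA, fewer thick ascending limb cells in a sort and less RNA in each of them cannot be told apart.

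Umod encodes uromodulin and lies on chromosome 7 (119462711 to 119479282, minus strand, GRCm38). Slc12a1 encodes NKCC2, the target of loop diuretics, and lies on chromosome 2 (125152505 to 125230002, plus strand). These spans are those of GENCODE, and RefSeq places the start of both genes a little further inside. Of the 250 bases before the RefSeq start (GRCm38.p6), those outside the GENCODE gene are given for both, because they are the most abundant of the 8 and the transporter that characterizes the segment. The first stretch, of 230 bases, is chr7:119479283-119479512 on the minus strand and the second, of 155 bases, is chr2:125152350-125152504 on the plus strand, both written 5′ to 3′.
Umod: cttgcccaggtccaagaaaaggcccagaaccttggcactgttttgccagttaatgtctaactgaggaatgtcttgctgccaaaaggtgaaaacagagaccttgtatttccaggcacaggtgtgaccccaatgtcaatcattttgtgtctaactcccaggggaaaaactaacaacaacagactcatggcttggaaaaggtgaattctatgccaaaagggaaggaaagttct
Slc12a1: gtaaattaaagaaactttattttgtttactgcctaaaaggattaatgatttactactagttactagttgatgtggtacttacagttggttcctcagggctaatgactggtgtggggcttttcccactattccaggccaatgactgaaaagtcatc
G and C made up 44.8% of the Umod stretch and 37.4% of the Slc12a1 stretch.

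**Figure D1:**
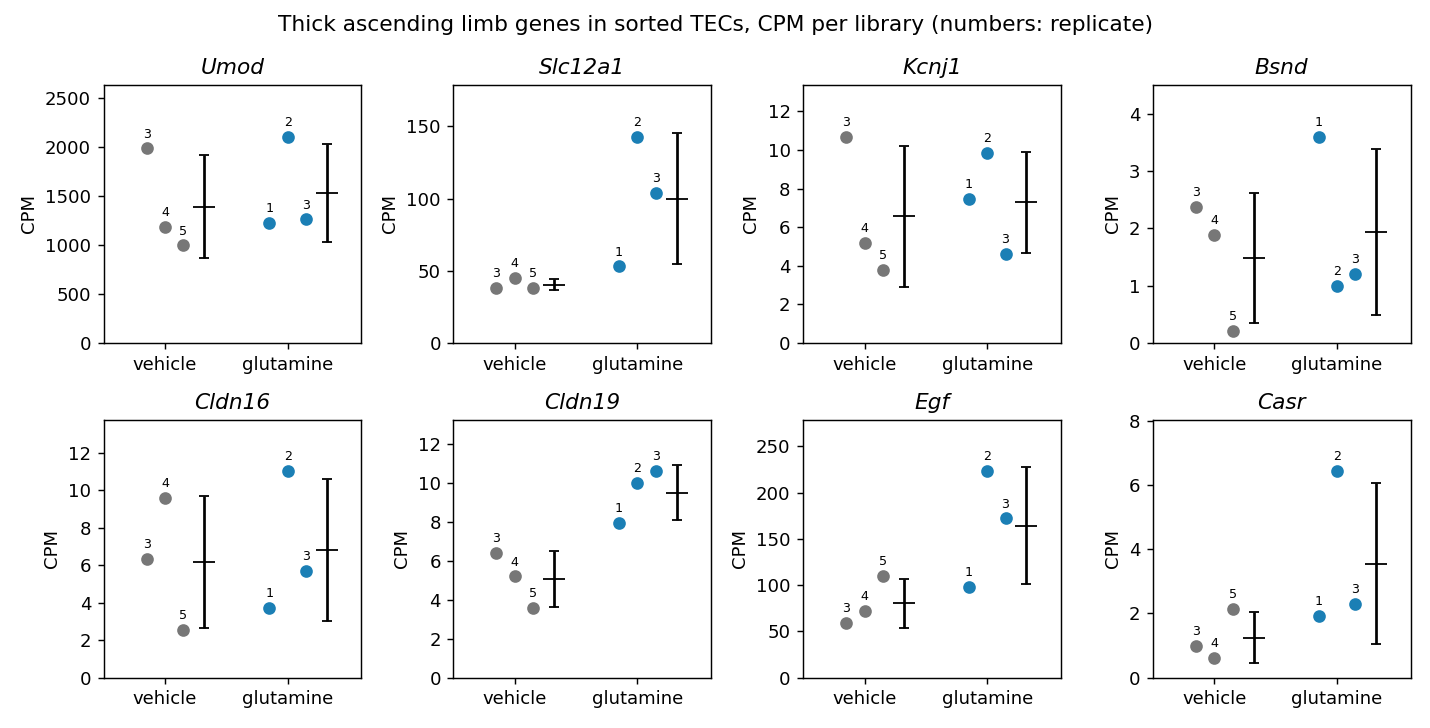
Level in CPM (counts over TMM-scaled library size, y axis from 0, a separate scale for each gene) of the 8 genes in every TEC library, with the replicate number above each point and the mean ± SD of 3 libraries beside each group. The groups do not overlap for Slc12a1 and Cldn19; in the other 6 panels they do.

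Among the secreted products, Umod was by far the most abundant. Its counts were 20164, 13278 and 9781 in vehicle replicates 3, 4 and 5, and 10208, 10506 and 11507 in glutamine replicates 1, 2 and 3. Scaled to library size by TMM, these correspond to 1989, 1189 and 997 CPM with vehicle and to 1226, 2110 and 1262 CPM with glutamine. The highest vehicle library and the highest glutamine library were close to each other, and the groups overlapped. This gave a log2 fold change of 0.14 (SE 0.29, adjusted p = 0.874). Uromodulin transcripts were therefore measured with at least 9781 counts in each library, and their change remained within the replicate spread.

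Egf encodes the precursor of epidermal growth factor, a membrane protein that is shed into the urine and is also made in the distal convoluted tubule. It is located on chromosome 3 (129677565 to 129755316, minus strand). Egf had 600, 807 and 1083 counts with vehicle and 813, 1109 and 1570 counts with glutamine, or 59.2, 72.3 and 110 CPM against 97.7, 223 and 172 CPM. Glutamine replicates 2 and 3 were above every vehicle library, while glutamine replicate 1 was below vehicle replicate 5. Glutamine exceeded vehicle by a log2 fold change of 1.03 (SE 0.32, unadjusted p = 0.00778, adjusted p = 0.24 in edgeR). With DESeq2 the adjusted p-value was 0.0638, and in edgeR without the expression filter it was 0.00431.

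Of the apical transport genes, Slc12a1 had the smallest p-value of the 8 genes. Its counts were 388, 502 and 373 in vehicle replicates 3, 4 and 5 and 441, 712 and 948 in glutamine replicates 1, 2 and 3. In CPM the vehicle libraries had 38.3, 45 and 38, a narrow range, and the glutamine libraries had 53, 143 and 104. Every glutamine library was above every vehicle library, and glutamine replicate 1 was the closest to the vehicle group. The mean level was 40.4 ± 3.94 CPM for vehicle and 100 ± 45.2 CPM for glutamine (SD, 3 libraries each). The log2 fold change was 1.30 (SE 0.32, unadjusted p = 0.00164, adjusted p = 0.202 in edgeR), which ranked 115 among the 14734 genes by p-value. DESeq2 gave a log2 fold change of 1.32 and an adjusted p-value of 0.00978, and Slc12a1 was the 1 gene that passed among the 7 of the 8 for which DESeq2 gave an adjusted p-value (all but Bsnd), where 1.81% of all tested genes passed as higher. Without glutamine replicate 2 the edgeR log2 fold change was 0.96. Without the expression filter the edgeR adjusted p-value was 0.000164.

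Kcnj1, on chromosome 9 (32372493 to 32399197, plus strand), encodes ROMK, the channel that recycles potassium so that NKCC2 can keep working. Its counts were low, with 108, 58 and 37 in the vehicle libraries and 62, 49 and 42 in the glutamine libraries. In CPM these were 10.7, 5.2 and 3.77 against 7.45, 9.84 and 4.61. Both the highest and the lowest library belonged to the vehicle group. Its log2 fold change was 0.15 (SE 0.49, adjusted p = 0.925). The difference in response between Kcnj1 and Slc12a1 was not tested.

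Bsnd, on chromosome 4 (106483456 to 106492283, minus strand), encodes barttin, the accessory subunit that basolateral chloride channels require. It was near the limit of what this depth can measure, with 24, 21 and 2 counts with vehicle and 30, 5 and 11 counts with glutamine. Vehicle replicate 5 held almost none, at 0.204 CPM, and glutamine replicate 1 held the most, at 3.6 CPM. A log2 fold change of 0.39 had an SE of 0.93 (adjusted p = 0.89), and a difference was not detectable at this depth.

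The tight junction genes Cldn16 and Cldn19 encode claudins that form the cation pore for magnesium and calcium together. Cldn16 lies on chromosome 16 (26463135 to 26482765, plus strand) and had 64, 107 and 25 counts with vehicle and 31, 55 and 52 counts with glutamine. Its CPM values were 6.31, 9.58 and 2.55 against 3.72, 11 and 5.7, with both groups spread over the same range. Its log2 fold change was 0.13 (SE 0.56, adjusted p = 0.943). Cldn19 lies on chromosome 4 (119255414 to 119262438, plus strand) and had 65, 58 and 35 counts with vehicle and 66, 50 and 97 counts with glutamine. After scaling, these were 6.41, 5.2 and 3.57 CPM against 7.93, 10 and 10.6 CPM, and every glutamine library was above every vehicle library. This corresponds to a log2 fold change of 0.91 (SE 0.39, unadjusted p = 0.0393, adjusted p = 0.363 in edgeR). The predicted antisense gene Gm12927 overlaps Cldn19 and had 9, 27 and 5 counts with vehicle and 1, 3 and 5 counts with glutamine. Whether the counting used strand is not given in the sources used here, so reads of Cldn19 and of this partner may not be fully separated.

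Casr, on chromosome 16 (36493696 to 36562141, minus strand), encodes the calcium-sensing receptor, which restrains salt and divalent cation reabsorption when blood calcium is high. Its counts were 10, 7 and 21 with vehicle and 16, 32 and 21 with glutamine. Glutamine replicate 2, at 6.43 CPM, stood above the other 5 libraries, which were between 0.627 and 2.3 CPM. The log2 fold change of 1.48 was numerically the largest of the 8, with an SE of 0.78 (unadjusted p = 0.0829, adjusted p = 0.448 in edgeR). Without glutamine replicate 2 it was 0.75.

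All 8 log2 fold changes were above 0, with a median of 0.65, against a median of 0.01 over all tested genes, 50.6% of which were above 0. The groups did not overlap for 2 of the 8 genes, with the glutamine group higher, as they did for 9.01% of all tested genes. The common direction depended on single libraries. Without vehicle replicate 5, which had the lowest level of Umod, Kcnj1, Bsnd, Cldn16 and Cldn19, the fold changes of Umod, Kcnj1, Bsnd and Cldn16 turned to -0.06, -0.13, -0.12 and -0.25 and the median was 0.33. Without glutamine replicate 2, those of Umod, Kcnj1 and Cldn16 turned to -0.16, -0.12 and -0.38, and without glutamine replicate 1 that of Bsnd turned to -0.41. Slc12a1, Cldn19, Egf and Casr were higher with glutamine in all 6 fits that left out 1 library, although 0 of these 8 genes passed an adjusted p-value of 0.05 in any of those fits.

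**Figure D2:**
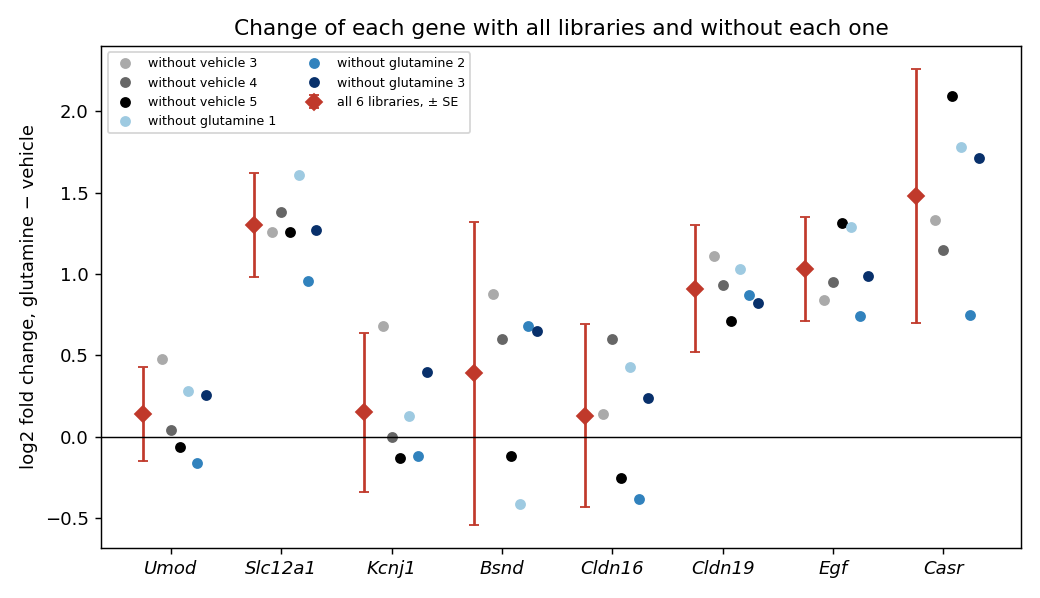
Log2 fold change (glutamine minus vehicle, y axis) of each gene with all 6 TEC libraries (diamond, ± SE) and without each library in turn (circles, coloured by the library left out). For Slc12a1, Cldn19, Egf and Casr every point lies above 0; for Umod, Kcnj1, Bsnd and Cldn16 the points lie on both sides of it.

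Because Umod made up 80.8% to 94.1% of the counts on the 8 genes, their joint share of a library followed Umod. The 8 genes together held 0.231%, 0.145% and 0.114% of the counts in vehicle replicates 3, 4 and 5 and 0.135%, 0.232% and 0.147% in glutamine replicates 1, 2 and 3. Here vehicle replicate 3 and glutamine replicate 2 were alike and the groups overlapped. Without Umod, the shares were 0.0136%, 0.0153% and 0.0158% with vehicle and 0.0168%, 0.0373% and 0.0282% with glutamine, and all glutamine libraries were higher. Most of these remaining counts were on Egf and Slc12a1. Taken singly in CPM, the groups overlapped for Kcnj1, Bsnd, Cldn16, Egf and Casr. In a ratio chosen after the values had been seen, Slc12a1 had 1.92, 3.78 and 3.81 counts per 100 counts of Umod with vehicle and 4.32, 6.78 and 8.24 with glutamine. This ratio uses no scaling of libraries. The groups did not overlap, with a log2 difference of 1.04, given as a description with no test because the pair was picked for its values. Egf per 100 Umod was 2.98, 6.08 and 11.1 with vehicle and 7.96, 10.6 and 13.6 with glutamine, where the groups overlapped (log2 difference 0.84).

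Per length of the longest annotated transcript, the order of mean levels over the 6 libraries was Umod with 557 ± 177 CPM per kb, Egf with 25.7 ± 13.2, Slc12a1 with 14.8 ± 9.16, Cldn16 with 5.53 ± 2.81, Kcnj1 with 2.25 ± 0.931, Cldn19 with 1.75 ± 0.663, Bsnd with 0.621 ± 0.431 and Casr with 0.53 ± 0.459 CPM per kb (SD, n = 6). Umod was the 1 gene whose range over the libraries did not overlap that of the next. Within libraries, Egf was above Slc12a1 in 6 of 6, Kcnj1 above Cldn19 in 5 of 6 and Bsnd above Casr in 3 of 6. When lengths were taken over all exons of a gene, Egf had 10.9 CPM per kb and lay below Slc12a1 with 12.2, so that the order of these 2 depends on which Egf transcripts are present.

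Across the 6 libraries, log2 CPM of Slc12a1 varied most closely with Egf (Pearson's r = 0.90), Cldn19 (0.83) and Casr (0.79), and Egf varied with Casr (0.91). Umod varied most closely with Kcnj1 (0.91), but hardly with Egf (0.14). These values are a description of 6 points that include both treatments and share library depth. The tested genes outside the 8 whose log2 CPM had the highest Pearson's r with the mean standardized profile of the 8 over these 6 libraries were Mrrf (0.987), Btbd7 (0.986), Slco4a1 (0.976), Pcolce (0.968) and Tgfbi (0.967).

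A list of 41 other genes used by thick ascending limb cells was set beside the 8, of which 39 were in the table and 35 were tested. Of these 35, 25 were above 0 and 10 below, with a median log2 fold change of 0.32, and 0 had an adjusted p-value below 0.05. At an unadjusted p-value below 0.05, 6 of the 35 were higher and 0 lower, against 7.32% and 5.58% of all tested genes, and in 5 the groups did not overlap, with glutamine higher, as in 9.01% of all tested genes. Many of these genes, the sodium pump subunits above all, are also abundant in the proximal tubule.

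Among the 9 tested transport partners, 8 were above 0 with a median of 0.53. Kcnj16, a basolateral potassium channel subunit, had 69.6 ± 10.7 CPM (vehicle) and 100 ± 9.18 CPM (glutamine; log2 fold change 0.53, SE 0.20, adjusted p = 0.323). Slc9a3, the sodium-proton exchanger NHE3 that the proximal tubule also uses, had 20.7 ± 5.68 and 34.5 ± 7.08 CPM (0.74, SE 0.28, adjusted p = 0.323). The groups did not overlap for Kcnj16 and Slc9a3. Atp1b1 and Fxyd2, which encode the beta and a regulatory subunit of the basolateral sodium pump, had mean levels of 181 and 2558 CPM. Their log2 fold changes were -0.13 (SE 0.19) and 0.20 (SE 0.18), and the groups overlapped for each.

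Of 8 tested regulators, 5 were above 0 with a median of 0.15. Sorl1, which encodes a sorting receptor that influences NKCC2 activation, had 31.5 ± 3.02 CPM (vehicle) and 48.5 ± 8.6 CPM (glutamine) (log2 fold change 0.62, SE 0.23, adjusted p = 0.30), without overlap. Wnk1, a kinase upstream of NKCC2 phosphorylation, had 146 ± 12.5 and 172 ± 26.6 CPM (0.24, SE 0.19, adjusted p = 0.633). Of the receptors, 3 of 4 were above 0; Pth1r, the parathyroid hormone receptor, which the proximal tubule also holds, had 269 ± 45.9 and 381 ± 107 CPM (0.51, SE 0.23, adjusted p = 0.392). Transcription factors were balanced, with 3 of 6 above 0 and a median of 0.02.

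Ppp1r1a and Wfdc15b had the smallest p-values of the list. Ppp1r1a, an inhibitor subunit of protein phosphatase 1, had 16.5, 12.5 and 15.1 CPM in vehicle replicates 3, 4 and 5 and 28.9, 62.7 and 31.1 CPM in glutamine replicates 1, 2 and 3. All glutamine libraries were higher, and glutamine replicate 2 was the highest, as it was for Umod, Slc12a1, Cldn16, Egf and Casr. The log2 fold change was 1.47 (SE 0.33, adjusted p = 0.168 in edgeR, 0.00527 in DESeq2). Wfdc15b, a small secreted protein with a WAP domain, had 57.7, 49.8 and 98 CPM with vehicle and 133, 250 and 109 CPM with glutamine. Again the groups did not overlap, and the log2 fold change was 1.25 (SE 0.34, adjusted p = 0.212 in edgeR, 0.0248 in DESeq2). These were the 2 genes of the list that passed with DESeq2, where 1.81% of all genes tested passed as higher.

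**Figure D3:**
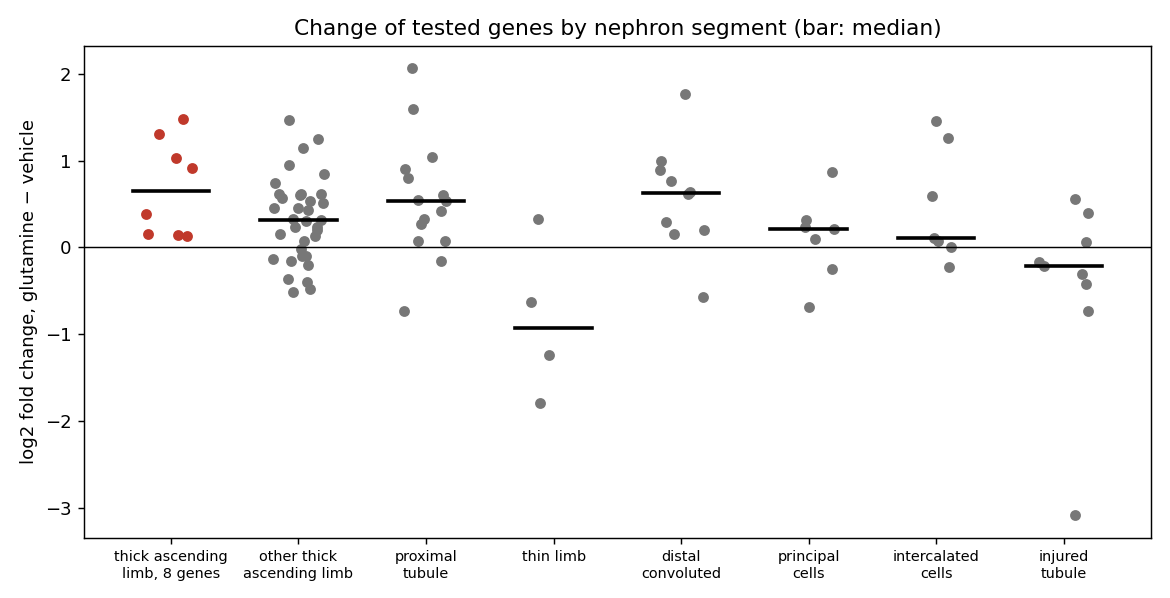
Log2 fold change (glutamine minus vehicle, y axis) of each tested gene (points) in lists of nephron segments and injured tubule, with the median of each list as a bar. The medians of the 8 genes (0.65), the proximal tubule (0.54) and the distal convoluted and connecting tubule (0.63) lie close together, and that of the thin limb lies at -0.93.

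Most markers of the neighbouring tubule segments also had log2 fold changes above 0. Of 15 tested proximal tubule genes 13 were above 0, with a median log2 fold change of 0.54, and of 10 distal convoluted and connecting tubule genes 9 were above 0, with a median of 0.63. Collecting duct principal cell and intercalated cell genes had medians of 0.21 and 0.11 over 7 genes each. Only the thin limb list (4 tested genes, median -0.93), the injured tubule list (9 genes, median -0.21) and the endothelial list (7 genes, median -0.21) had a median below 0 among the lists examined. At an unadjusted p-value below 0.05, 5 of the 15 proximal and 3 of the 10 distal convoluted and connecting tubule genes were higher and 0 lower, 2 of 7 intercalated cell genes were higher and 2 of 4 thin limb genes were lower, against 7.32% and 5.58% of all tested genes. With all 6 libraries and the expression filter in edgeR, no gene of these lists passed the adjusted threshold. Without that filter, 6 of 90 genes over these and the other cell type lists passed it, 4 of them higher, against 398 of all 29116 genes, 290 of them higher. With DESeq2, 3 of 76 genes over all these and the other cell type lists did, 1 higher and 2 lower, against 1.81% and 0.561% of all genes tested, and these are named after their values were seen: Havcr1 of the injured tubule list, Slc7a13, an amino acid transporter of the proximal tubule (edgeR log2 fold change 1.59, SE 0.38, DESeq2 adjusted p = 0.00393), and Bst1 of the thin limb list (-1.24, DESeq2 adjusted p = 0.0409). For Slc7a13 and Bst1 the groups did not overlap. Differences between the lists were not tested.

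In levels, Slc34a1, the phosphate cotransporter of the proximal tubule, had 1663 ± 615 CPM (vehicle) and 2419 ± 409 CPM (glutamine) (log2 fold change 0.54, SE 0.26), and Kap, a proximal tubule gene driven by androgen, had 8526 ± 1847 and 7652 ± 3649 CPM (-0.16, SE 0.33). Slc12a3, the cotransporter of the distal convoluted tubule and closest relative of NKCC2 there, had 56.9 ± 29.2 and 106 ± 41.7 CPM (0.89, SE 0.37, adjusted p = 0.356), and Calb1, a calcium-binding protein of the same segment, had 26.1 ± 0.821 and 44.5 ± 2.93 CPM (0.77, SE 0.21, adjusted p = 0.218). Slc14a2, a urea transporter in the thin limb list, had 69.9 ± 51.2 and 20.1 ± 2.44 CPM (-1.79, SE 0.68, adjusted p = 0.347), and Cldn4 in the same list had 169 ± 75.6 and 212 ± 88 CPM (0.33, SE 0.38). Of the collecting duct, Aqp2 had a log2 fold change of 0.32, Aqp3 of -0.25, Atp6v1g3 of 0.11 and Aqp6 of 1.26, with SEs of 0.42, 0.32, 0.42 and 0.50. The most abundant injury genes, Spp1 and Lcn2, had -0.73 (SE 0.44) and -0.42 (SE 0.52). Of the 9 tested genes of the injured tubule list, 3 were above 0, led by Sox9 (0.56, SE 0.43), and 6 were below. Havcr1, which encodes the injury marker KIM-1, had 793, 541 and 106 CPM in vehicle replicates 3, 4 and 5 and 94.1, 49.4 and 26.2 CPM in glutamine replicates 1, 2 and 3. The groups did not overlap, with vehicle replicate 5 close to the glutamine libraries (log2 fold change -3.08, SE 0.85, adjusted p = 0.254 in edgeR, 0.0322 in DESeq2), and it was the 1 gene of the injured tubule list with an unadjusted p-value below 0.05. The part of segment composition in the values of Slc12a1, Egf and Cldn19 was not tested.

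Markers of cells outside the tubule were also detected. Prom1, on which the cells were sorted, was at 70.4 ± 5.96 CPM (vehicle) and 80.2 ± 4.56 CPM (glutamine), and Ptprc, which encodes CD45, had 1.03 ± 0.808 and 2.28 ± 0.467 CPM, with no overlap. Of 8 tested macrophage and dendritic cell genes 6 were above 0, with a median log2 fold change of 0.71. Their summed level was between 44 and 90.8 CPM with vehicle and between 66.4 and 139 CPM with glutamine. Csf1r (log2 fold change -0.09) and H2-Ab1 (0.66) were the most abundant. At an unadjusted p-value below 0.05 in edgeR, 1 gene of this list was higher and 0 lower, against 7.32% and 5.58% of all tested genes. That gene was Lyz2 (1.95, SE 0.61, adjusted p = 0.246 in edgeR), and its groups did not overlap. Of 10 listed neutrophil genes only 5 passed the filter on low counts and were tested. Of these 5 tested genes 4 were above 0, with sums of 101 to 241 and 117 to 248 CPM, led by Cxcr2 (-0.41) and S100a8 (0.79). Endothelial genes, 1 of 7 above 0, had summed levels of 319 to 532 CPM with vehicle and 320 to 449 CPM with glutamine. They were led by Flt1 (-0.32) and Cdh5 (-0.30). The sums of the distal convoluted and connecting tubule list were 115 to 187 and 172 to 277 CPM. Such sums are over different genes and not scaled to length, so they do not compare amounts of cells. Of 5 listed stromal genes 3 were tested, with 2 above 0, led by Acta2 (0.32) and Pdgfrb (0.22). Podocyte genes, 3 of 4 above 0, were led by Podxl (0.19) and Wt1 (0.86). The part of these cells in the values of the 8 genes was not tested. Total counts ranged from 5397370 in glutamine replicate 2, the shallowest library, to 10223461 in vehicle replicate 4, and the share of counts on predicted, Rik and sensory receptor genes was 17.4% to 23.3% with vehicle and 26.3% to 30.8% with glutamine.

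**Figure D4:**
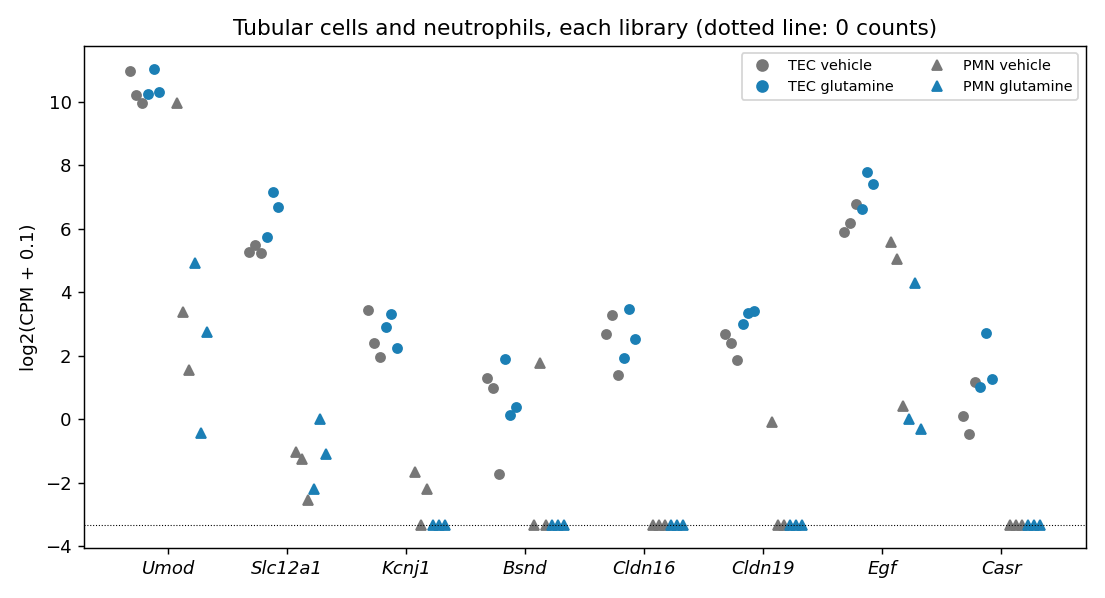
Level of the 8 genes as log2(CPM + 0.1) (y axis) in each TEC library (circles) and each PMN library (triangles), grey for vehicle and blue for glutamine, with 0 counts on the dotted line. In the PMN libraries Cldn16 and Casr are at 0 throughout, and for Umod vehicle replicate 1 lies at 990 CPM, close to the lowest TEC library at 997 CPM.

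In neutrophils, the negative control, 2 of the 8 genes, Cldn16 and Casr, had 0 counts in all 6 libraries. By counting error, this allows up to 3 counts in a library. The other 6 genes exceeded 3 counts in at least 1 library of 20225151 to 21878357 counts. Slc12a1 had 2.5, 19 and 7.5 counts in glutamine replicates 1, 2 and 3 and 8, 7 and 1.5 counts in vehicle replicates 1, 2 and 3, or at most 0.917 CPM. All of these lie far below the lowest TEC library, at 38 CPM. Umod had 634, 13.4 and 134 counts with glutamine and 20453, 225 and 58.3 counts with vehicle. A single neutrophil library, vehicle replicate 1, thus held 990 CPM of Umod, against 0.648 to 30.1 CPM in the other 5. In that library Slc12a1 had 0.0391 counts per 100 counts of Umod, whereas the TEC libraries had 1.92 to 8.24. The other neutrophil libraries had 0.394, 142 and 5.62 in glutamine replicates 1, 2 and 3 and 3.11 and 2.57 in vehicle replicates 2 and 3, of which 3 lie within the TEC range, all from few counts of Slc12a1. In summed level, the distal convoluted and connecting tubule list (446 CPM against 19.7 to 208) and the proximal tubule list (476 CPM against 321 to 424) were highest in vehicle replicate 1, while the principal cell list (0.717 CPM against 0.193 to 6.56) and the intercalated cell list (0.726 CPM against 0 to 14.9) were not. The list of other thick ascending limb genes was at 1165 to 2356 CPM in the neutrophil libraries, with 1968 CPM in vehicle replicate 1. Whether the Umod counts of vehicle replicate 1 are carry-over was not tested. Egf had 19, 404 and 14.5 counts with glutamine and 1000, 724 and 25.9 counts with vehicle, and so was high in 3 libraries of both treatments. The neutrophil list had summed levels of 20473 to 64546 CPM in these 6 libraries. Neutrophil and TEC levels were scaled separately and are set side by side without a test.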

How the data were processed

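RNA-Seq of 50-base single-end reads was analyzed in 6 TEC and 6 PMN libraries. The submitters' processing notes name Trim Galore 0.6.4, Salmon 1.0.0, FastQC, MultiQC, DESeq2 and the build mm10; the annotation used for counting is not given in the sources used here. Values deposited by the authors are Salmon's estimated counts, given per gene symbol and not normalized. TEC values were rounded to whole counts. The deposited PMN table had passed through a spreadsheet (3.2% of cells with extra points, 0.39% turned into dates); it was planned as counts, was decoded, and the 2 columns of each library were averaged and used only as a negative control.

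TEC libraries were scaled by TMM and filtered with filterByExpr defaults, and 14734 genes were tested in edgeR 4.0.16 under R 4.3.3 by quasi-likelihood, with Benjamini-Hochberg adjustment over all of them at 0.05. The script was tested on simulated data. CPM used TMM-scaled library sizes for TECs and plain totals for PMN. Positions and lengths came from GENCODE M21 (GRCm38). Alternatives were DESeq2 1.42.0, limma-voom (limma 3.58.1), another normalization, filter or threshold, and leaving out each library. No label ties a library to a named animal, so that p-values measure the spread between these libraries. The 8 genes and all lists were chosen with earlier results of these data known. Named genes were the 8, the sort markers and the 5 genes most like the 8 in profile. Other thick ascending limb genes were named at an unadjusted p-value below 0.05 or among the 5 most abundant. Of each other list, the 2 most abundant were named. Gm12927, Havcr1, Slc7a13, Bst1, Lyz2 and Sox9 were added after their values were seen. Some genes that this rule covers are not reported here.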

Additional observations from a re-analysis of the deposited data

Results flagged for a closer look

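Of the 8 thick ascending limb genes, 6 had more than 3 counts in at least 1 neutrophil library, which were outside the comparison of TECs. The highest values were 20453 counts of Umod, 4.51 counts of Kcnj1, 17.5 counts of Cldn19 and 1000 counts of Egf in vehicle replicate 1. Vehicle replicate 2 had 72.5 counts of Bsnd, and glutamine replicate 2 had 19 counts of Slc12a1. In CPM these were 990 for Umod, 0.218 for Kcnj1, 0.847 for Cldn19, 48.4 for Egf, 3.31 for Bsnd and 0.917 for Slc12a1. Bsnd was at 0 in the other 5 neutrophil libraries, and Cldn19 was at 0 in all but vehicle replicate 1. Both deposited columns of vehicle replicate 1 held the Umod value, at 20465 and 20441 counts. These columns belong to the same library, so their likeness is not an independent second measurement.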

How the results depend on the processing

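The number of TEC genes with an adjusted p-value below 0.05 was 0 with edgeR's quasi-likelihood test, where 1901 genes had an unadjusted p-value below 0.05, and it was 308 with DESeq2, 398 without the expression filter, 12 at an adjusted p-value below 0.1, 11 with edgeR's bias-adjusted version (added after seeing the data) and 0 to 38 when 1 library was left out (38 without glutamine replicate 2, 4 without vehicle replicate 5). For the 8 genes the count of 0 became 1 with DESeq2 and 2 without the filter, for the other thick ascending limb genes 2 under either, and for the lists of other segments and cells 3 and 6, and 0 to 1 without 1 library (1 without vehicle replicate 5). Without the filter, Slc12a1 had a log2 fold change of 1.27 (adjusted p = 0.000164) and Egf 0.99 (adjusted p = 0.00431). Leaving out 1 library gave log2 fold changes of -0.16 to 0.48 for Umod, -0.13 to 0.68 for Kcnj1, -0.41 to 0.88 for Bsnd and -0.38 to 0.60 for Cldn16. The same fits gave 0.96 to 1.61 for Slc12a1, 0.71 to 1.11 for Cldn19, 0.74 to 1.31 for Egf and 0.75 to 2.09 for Casr. Of 109 recomputed values of the 8 genes that have an adjusted p-value, 98 kept direction and side of the threshold, 3 newly passed it and 8 reversed; the cause was not tested. The median over the 8 was 0.33 to 0.86. Without Umod their share of counts was 0.0149% with vehicle and 0.0274% with glutamine, and over counts other than predicted, Rik and sensory receptor genes the share of the 8 was 0.204% with vehicle and 0.238% with glutamine, against 0.164% and 0.171% over all counts. Egf per length of all exons was 10.9 CPM per kb. Bsnd and Casr gave no value with at least 10 counts required in every library. No paired analysis was possible because the vehicle and glutamine TEC libraries share only replicate number 3. Depth limits Bsnd and Casr most, with 2 to 32 counts in a library.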
